A study of Mus musculus with 96 samples.

Results

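The cytochrome P450 genes are a large family of haem-containing monooxygenases, and their messenger RNA was followed here along the mouse nephron. Members were taken by name from the expression table: every gene whose symbol has the form Cyp, family number, subfamily letter and gene number (Cyp2e1), without the vitamin D hydroxylase genes Cyp27b1 and Cyp24a1. The rule found 92 members among the 54532 genes of the table. It leaves out 37 other Cyp symbols, 30 of them pseudogenes and 1 antisense; of these, Cyp51 (465 TPM in PTS2), Cyp4a12a (55.4 TPM in PTS3) and Cyp4a12b (11.3 TPM in PTS2) reached a group mean of 10 TPM.

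The study dissected tubule segments and glomeruli by hand from kidneys of untreated male C57BL/6 mice aged 6 to 8 weeks and sequenced their RNA from very small inputs. The 15 groups were the glomerulus (3 mice), 3 proximal segments (PTS1, the start of the convoluted part, 3 mice; PTS2, the straight part in the cortical rays, 5 mice; PTS3, the last straight part in the outer medulla, 3 mice), the short descending limb DTL1 (3 mice), the long descending limb in the outer (DTL2, 3 mice) and inner (DTL3, 3 mice) medulla, the thin ascending limb ATL (4 mice), the thick ascending limb in medulla (MTAL, 3 mice) and cortex (CTAL, 5 mice), the distal convoluted tubule DCT (3 mice), the connecting tubule CNT (3 mice), and the collecting duct in cortex (CCD, 5 mice), outer medulla (OMCD, 4 mice) and inner medulla (IMCD, 3 mice). The 93 libraries fall into 53 combinations of mouse number and segment, and pieces of the same combination were averaged. All mice were of 1 strain and 1 sex. Levels are TPM, transcript abundance as a share of each library's transcripts that allows for gene length and carries no information on sequencing depth.

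P450 enzymes insert an oxygen atom into fats, sterols, steroids, retinoids, drugs and toxins. Those in the endoplasmic reticulum take electrons from the reductase encoded by Por, and those in mitochondria from ferredoxin (Fdx1) and its reductase. In the kidney the family is best known for the arachidonic acid products of its epoxygenases (subfamilies Cyp2c and Cyp2j) and omega-hydroxylases (family Cyp4), which act on vessel tone and salt transport, and for drug and toxin oxidation in the proximal tubule.

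Segment marker genes and genes that tubules are not known to use were read in every group first. The segment marker genes had their highest mean in a group they were listed for, except Slc7a13, listed for PTS3, whose mean was 2045 TPM in PTS2 and 1502 TPM in PTS3. The summed level of 10 proximal marker genes was 37379 to 91681 TPM in proximal pieces, 1561 to 5297 TPM in DTL1, and at most 648 TPM in any mouse of the other groups. Odorant and pheromone receptor genes, which tubules are not known to use, were at 1 TPM or more in 753 to 925 cases per mouse in DTL1, 403 to 898 in the glomerulus, 504 to 556 in DTL3, 274 to 389 in DTL2, 20 to 703 in ATL and 76 to 253 in OMCD, against at most 31 elsewhere. Values of a few TPM in those 6 groups are given below with this in view, and its part in them was not tested.

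The P450 transcripts were most abundant in the middle of the proximal tubule. In PTS2 the members together made up 14984 ± 991 TPM (SD, n = 5), or 1.5% of all transcripts, with single mice between 13774 and 15965 TPM. The sum was 4430 ± 583 TPM in PTS3 (n = 3), 2673 ± 436 TPM in PTS1 (n = 3) and 1497 ± 44.6 TPM in the glomerulus (n = 3). Beyond the proximal tubule it was highest in DCT (821 ± 22.2 TPM, n = 3) and DTL1 (755 ± 68.1 TPM, n = 3), and lowest in IMCD (113 ± 9.15 TPM, n = 3). No mouse of any other group came within the PTS2 range, and the 3 PTS3 mice (3903 to 5056 TPM) lay above the 3 PTS1 mice (2175 to 2980 TPM). In such pieces, fewer cells of a type and less RNA per cell cannot be told apart.

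**Figure D1:**
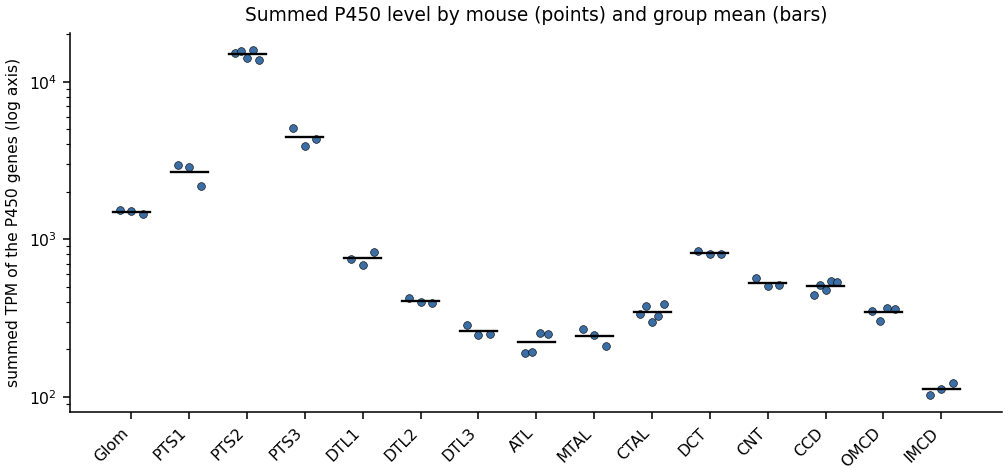
Summed TPM of the 92 P450 genes in each mouse (points) with the group mean (bars), on a log axis, for the glomerulus (Glom) and 14 tubule segments. The 5 PTS2 mice sit between 13774 and 15965 TPM, above every other mouse.

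The kind of P450 differed between these groups. Omega-hydroxylases of family 4 supplied 70.3% of the summed level in PTS2 and 67.9% in the glomerulus, where 1 gene, Cyp4b1, held 8280 of 10535 TPM and 940 of 1017 TPM, and epoxygenases supplied 70.4% in DCT. In PTS3 the sterol and bile acid hydroxylases gave 25.1%, against 2.97% in PTS1 and 3.02% in PTS2, and 1 gene, Cyp7b1, held 1068 of their 1110.0 TPM in PTS3. The number of members at 1 TPM or more was not highest where the sum was: it was 42 to 46 per mouse in DTL1 and 32 to 42 in the glomerulus, 2 of the groups with many receptor genes at that level, against 27 to 29 in PTS2. All genes at that level numbered 26044 to 29454 in DTL1 and 23597 to 29280 in the glomerulus, against 11474 to 11720 in PTS2, a wider gap than that of the members.

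Of the 92 members, 58 passed the filter of 1 TPM in at least 3 mice and were tested, and 34 did not pass it. By limma's moderated F-test, 58 of 58 tested members differed among the 15 groups, where 93.9% of all 33793 genes tested did, so the share is near the background. The highest group mean was under 1 TPM for 34 members, not all of them the untested ones. A group mean of 10 TPM was reached by 31 members and of 100 TPM by 15. Of those 31, the highest mean was in PTS2 for 11, in the glomerulus and in DCT for 4 each, in PTS1 and in DTL1 for 3 each, in CNT and in CCD for 2 each, and in PTS3 and in ATL for 1 each.

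**Figure D2:**
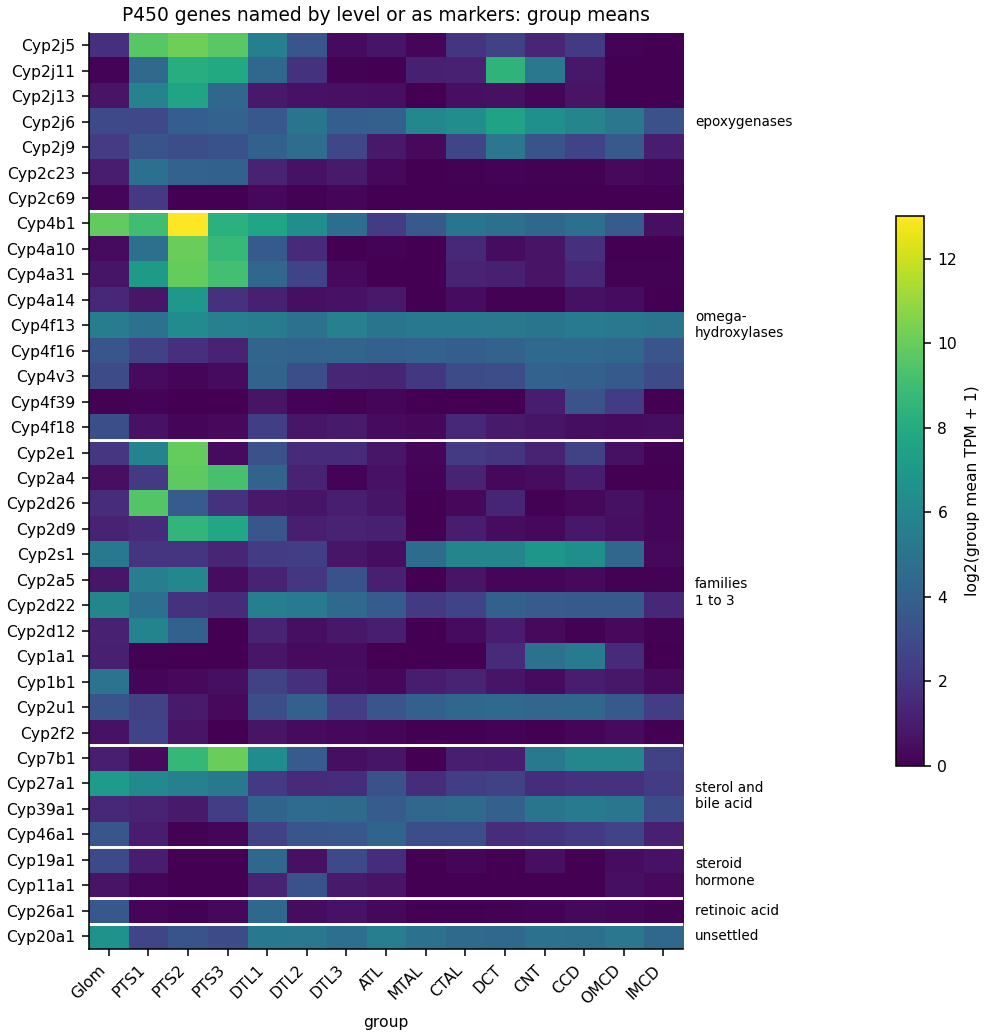
Group means of the P450 genes that reached 10 TPM in a group or marked 1 group, as log2(TPM + 1), in 15 groups (columns), ordered by role and level. Bright cells gather in PTS1, PTS2 and PTS3, with separate bright cells for Cyp4b1 in the glomerulus and Cyp2j11 in DCT.

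The 3 proximal segments together were then set against the mean of the other 12 groups. A gene was called at an adjusted p under 0.05 and a difference of at least 1 on the log2(TPM + 1) scale, which understates the change of low genes. 17 of the 58 tested members were higher in the proximal tubule, where 3.94% of all genes tested were, and 11 were lower, where 21.8% were. Of the 17, Cyp4f14 passed the filter only through proximal mice, and of the 11, Cyp17a1, Cyp1a1, Cyp46a1 and Cyp4v3 passed it only through the other mice, so 16 and 7 did not owe their place to the side where they are high. Roles were set by gene symbol, and the list called families 1 to 3 leaves out the Cyp2c and Cyp2j genes, which are listed as epoxygenases. By role the higher members were 4 of 10 tested epoxygenases, 5 of 14 omega-hydroxylases, 6 of 21 members of families 1 to 3, and 2 of 6 sterol and bile acid hydroxylases. The lower members were 1, 2, 4 and 2 of the same lists, Cyp17a1 and Cyp20a1. The median difference over the 58 members was -0.25, and over all genes tested -0.48. Without the glomerulus, DTL1, DTL2, DTL3 and ATL these medians were 0.01 and -0.10, with 17 members higher and 10 lower; Cyp2d22 and Cyp17a1 were not among these 10, and Cyp3a13, named after its value was seen, was newly called. With each mouse rescaled by its median ratio that median over all genes was -0.23 and the calls split 22 higher and 8 lower; with quantile normalization it was -0.04 and the split was 23 and 6. With a pseudocount of 0.1 in place of 1 the split was 22 and 27, so the balance of higher and lower members depends on this choice. Cyp2d22, Cyp2j6 and Cyp17a1 were not called lower under either of these scalings, and Cyp1a1 and Cyp2s1 not under the second. A gene was said to mark a group when it was higher there than in each of the 14 others, with a smallest margin of at least 1 and an adjusted p under 0.05 for the least certain of those 14 differences.

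The epoxygenases oxidize arachidonic acid to epoxides. Cyp2j5, an arachidonic acid epoxygenase of mouse kidney, was high in all 3 proximal segments. It measured 604, 818 and 918 TPM in the 3 PTS1 mice, 985 to 1267 TPM (median 1081) in PTS2, and 698, 852 and 959 TPM in PTS3. The next group was DTL1 (24.8, 53.6 and 66.5 TPM), so proximal and other pieces did not overlap. Its proximal difference was 8.43 (SE 0.23, limma adjusted p = 1.9e-32), and none of its 3 differences between proximal segments passed the test (log2 -0.53 for PTS1 against PTS2, 0.43 for PTS2 against PTS3). Cyp2c23, the main Cyp2c member here, stood at 22.5, 27.5 and 28.6 TPM in PTS1, 14.3 to 18.8 TPM in PTS2 and from 13.1 to 18.95 TPM in PTS3, so that the PTS1 mice lay above all others. The margin over PTS2 of 0.68 was under the 1 asked for.

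Cyp2j13 peaked in PTS2, with 156, 166, 185, 226 and 231 TPM, against 11.7, 65.7 and 88.6 TPM in PTS1 and 14.0, 17.1 and 26.5 TPM in PTS3. PTS2 overlapped neither, while PTS1 and PTS3 overlapped each other. The margin over PTS1 was 2.17 (SE 0.39, adjusted p = 0.000396), and it was not called without PTS1 mouse 3, whose 11.7 TPM was the lowest. Among the other Cyp2c members Cyp2c69 marked PTS1 at 3.06, 3.42 and 3.79 TPM, with no mouse of another group above 0.47 TPM. It passed the filter of 1 TPM only through these 3 mice, so the filter largely fixed this call. Its coding sequence is 97.7% identical to that of Cyp2c67 and 96.5% to that of Cyp2c68, which was at 0.54, 2.62 and 2.915 TPM in PTS1 and was not tested, so the separate levels of these copies are uncertain.

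Other Cyp2j genes had their highest levels in the distal nephron. Of these, Cyp2j11 was also called higher in the proximal tubule than in the rest (log2 4.94, SE 0.14, limma adjusted p = 4.01e-32). Cyp2j11 measured 328, 369 and 371 TPM in DCT, 227 to 335 TPM (median 259) in PTS2 and 210, 215 and 297 TPM in PTS3, while PTS1 mice had 10.0, 24.1 and 31.5 TPM. CTAL, which leads into DCT, held 1.3 ± 0.68 TPM (n = 5), and CNT, which follows it, 29.4, 30.5 and 48.4 TPM. The DCT and PTS2 ranges overlapped, and the margin of DCT over PTS2 was 0.42 (SE 0.28, adjusted p = 1), so the gene marked no group. In DCT the level of Cyp2j11 was 132% of its PTS2 mean while the proximal marker list was at 0.358% of its own.

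Cyp2j6 had its highest values in DCT too, at 175, 180.1 and 186 TPM. The segments on either side held less: CNT mice had 86.3, 95.8 and 96.6 TPM, CTAL 75.7 to 86.8 TPM, MTAL 59.8 to 71.7 TPM, CCD 53.2 to 70.8 TPM and OMCD 29.0 to 37.1 TPM. No mouse outside DCT reached the DCT range, but the margin over CNT of 0.95 (SE 0.17, adjusted p = 0.000271) was under the size asked for. Cyp2j6 was called lower in the proximal tubule except under the rescalings, and its means there were 6.35 TPM in PTS1, 13.9 TPM in PTS2 and 16.4 TPM in PTS3. Cyp2j9 also had its highest mean in DCT (34.2 ± 4.68 TPM, n = 3). Its lowest DCT mouse (28.8 TPM) lay just above the highest DTL2 mouse (28.2 TPM), and the margin of 0.51 was not called.

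**Figure D3:**
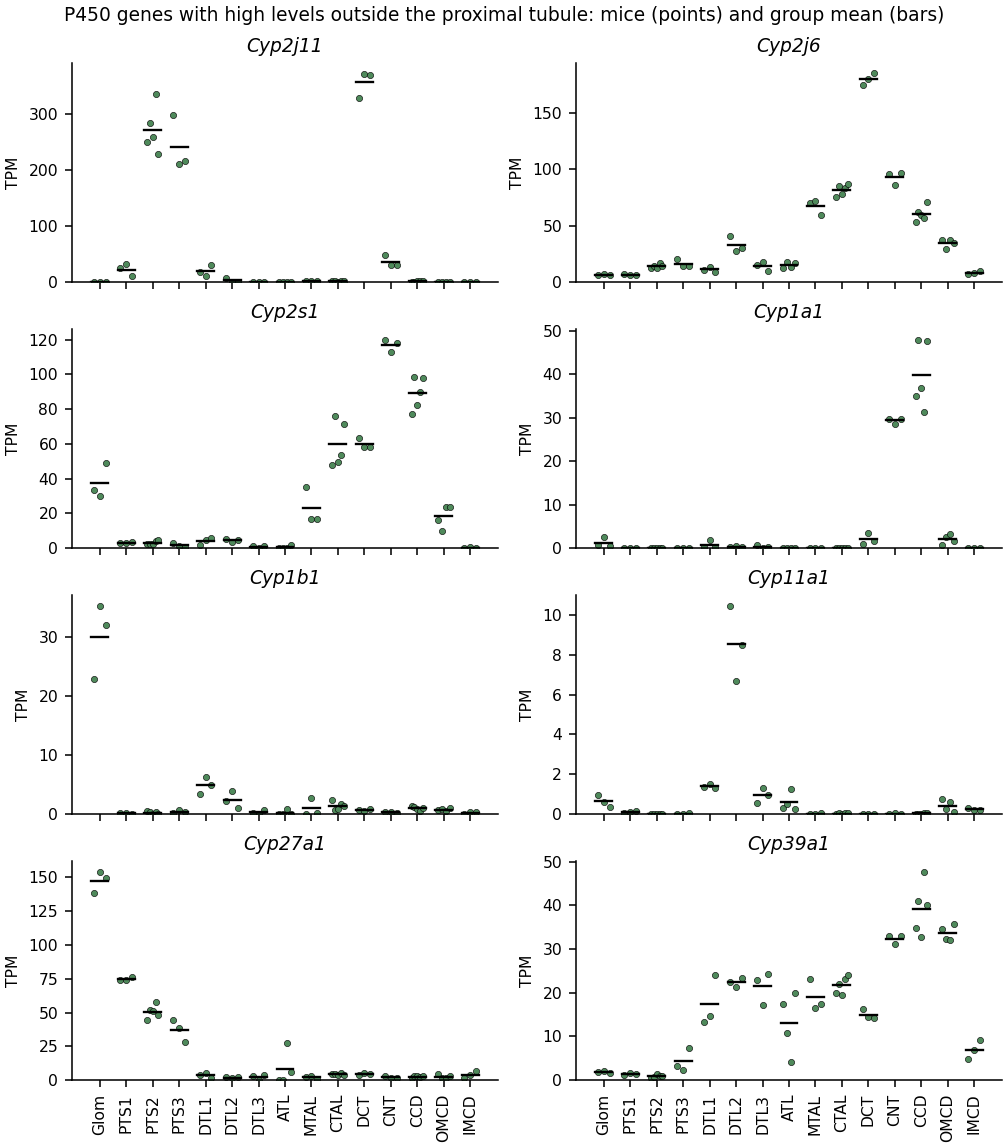
TPM of 8 P450 genes in each mouse (points) with the group mean (bars) in the glomerulus (Glom) and 14 tubule segments, on linear axes from 0. Cyp2j11 and Cyp2j6 peak in DCT at 356 and 180.4 TPM, Cyp2s1 in CNT at 117 TPM, and Cyp1b1 and Cyp27a1 in the glomerulus at 30.0 and 147 TPM.

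The omega-hydroxylases oxidize the far end of fatty acid chains, and the Cyp4a enzymes make a vasoactive product from arachidonic acid. Cyp4b1, which acts on fatty acids and on some toxins, was the most abundant P450 transcript by far. PTS2 mice had 7257, 8045, 8175, 8858 and 9065 TPM, 55.3% of the summed level there. The next group was the glomerulus with 916, 937 and 968 TPM, then PTS1 with 231, 630.1 and 724 TPM and PTS3 with 264, 307 and 393 TPM. PTS2 stood apart from every other mouse, with a margin over the glomerulus of 3.13 (SE 0.46, adjusted p = 1.32e-05).

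The glomerular level of Cyp4b1 was set beside that of proximal genes. Glomeruli held 11.4% of the PTS2 mean of Cyp4b1 but 0.266% of the PTS2 mean of the proximal marker list, 0.22% of that of Cyp2j5 and 0.0269% of that of Cyp4a10. Cyp4b1 made up 62.2 to 63.2% of the P450 sum in the 3 glomerular samples. Markers of other glomerular cell types were high in the same samples: the 4 endothelial markers summed to 2733 to 2770 TPM and the 4 stromal and muscle markers to 393 to 580.1 TPM. Which cells carried Cyp4b1 was not tested.

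Cyp4a10, Cyp4a14 and Cyp4a31 were higher in PTS2 than in PTS1. Cyp4a10 stood at 21.5, 26.7 and 31.2 TPM in PTS1, 960 to 1131 TPM (median 1033) in PTS2 and 374, 414 and 469 TPM in PTS3. Cyp4a31 stood at 122, 125 and 159 TPM in PTS1, 899 to 1089 TPM (median 979) in PTS2 and 476, 553 and 640.2 TPM in PTS3. Cyp4a14 had a narrower range of segments, at 98.0, 106, 119, 131 and 156 TPM in PTS2, at most 1.0 TPM in a PTS1 mouse and at most 4.53 TPM in a PTS3 mouse. For each of these 3 genes the PTS2 mice lay above all PTS1 and PTS3 mice. Cyp4a14 had the widest PTS2 margin in the family (5.24, SE 0.31, adjusted p = 1.998e-16). The margin of Cyp4a10 over PTS3 was 1.34 (SE 0.34, adjusted p = 0.0406), and leaving out any 1 of the 5 PTS2 mice or 3 PTS3 mice ended that call.

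Cyp4a10 and Cyp4a31 have close copies. In GENCODE M21 the coding sequence of Cyp4a10 was 97.2% identical to that of Cyp4a32 and 96.6% to that of Cyp4a31, with shared runs of up to 186 bases without a difference. How reads were divided between them is not given in the sources used here, so their separate levels are uncertain. Cyp4a32 itself was listed at 1.27 ± 0.67 TPM in PTS2 (n = 5), and its difference between PTS1 and PTS2 (log2 -0.55, adjusted p = 0.0222) was below the fold required for a call, which it passed under quantile normalization. Cyp4a14 is more distinct, with 79.7% identity to its nearest copy.

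Other family 4 members were spread more evenly or lay outside the proximal tubule. Cyp4f13 was between 27.9 and 77.5 TPM in every group mean. Cyp4f16 was lower in the proximal tubule (log2 -2.25). Cyp4v3, a fatty acid hydroxylase of many tissues, passed the filter only through mice outside the proximal tubule, so its call as lower there was largely fixed. It reached 16.9 TPM in DTL1, 16.2 TPM in CNT and 14.9 TPM in CCD, and no proximal mean reached 0.5 TPM. Cyp4f39, an omega-hydroxylase of very long chain fatty acids, marked CCD at 5.21 to 13.0 TPM (median 8.34), with 0.735, 3.94, 4.87 and 5.42 TPM in OMCD (margin 1.21, SE 0.22, adjusted p = 0.00604). The lowest CCD mouse overlapped the highest OMCD mouse, and the call was lost without CCD mouse 4 or without OMCD mouse 1. Cyp4f18, which inactivates leukotrienes in leukocytes, was called in the glomerulus at 5.9, 7.4 and 9.95 TPM, but DTL1 mouse 5 had 11.1 TPM. The leukocyte gene Ptprc was at 21.15 to 27.85 TPM in glomeruli and at 21.9 TPM in that DTL1 mouse, against 9.77 and 11.3 TPM in the other DTL1 mice, and its part in the Cyp4f18 values was not tested. The call was lost in 33 of the 53 fits without 1 mouse.

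Families 1 to 3 hold the enzymes best known for drugs and toxins, and here genes of 1 subfamily were high in different proximal segments. Cyp2d26 was a PTS1 gene, at 661, 721 and 845 TPM, against 9.53 to 15.6 TPM in PTS2 and 0.875, 1.09 and 6.19 TPM in PTS3. Cyp2d12 followed the same order at lower levels: 42.5, 51.7 and 81.6 TPM in PTS1, 8.81 to 22.7 TPM in PTS2 and at most 0.015 TPM in PTS3. Cyp2d9, a testosterone hydroxylase of male mouse liver, was instead low in PTS1, at 0.64, 1.35 and 4.23 TPM in PTS1, 303 to 509 TPM (median 358) in PTS2 and 188, 211 and 241 TPM in PTS3. None of these PTS1 and PTS2 ranges overlapped. The difference of PTS1 minus PTS2 was 5.83 for Cyp2d26 (SE 0.40, adjusted p = 3.52e-16), the largest in that direction, and -7.16 for Cyp2d9 (SE 0.36, adjusted p = 3.46e-21). Cyp2d12 and Cyp2d9 are 92.1% identical over the coding sequence and share a run of 158 bases, and Cyp2d26 is 81.5% identical to its nearest copy.

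Cyp2a4 and Cyp2a5 divided the tubule in another way. Cyp2a4, a steroid hydroxylase, measured 0, 0.065 and 10.7 TPM in PTS1, 669 to 1369 TPM (median 759) in PTS2 and 547, 585 and 653 TPM in PTS3. Cyp2a5, a coumarin hydroxylase, measured 36.1, 40.2 and 61.4 TPM in PTS1, 45.8 to 113 TPM (median 58.2) in PTS2 and 0.235, 0.38 and 0.43 TPM in PTS3. Cyp2a4 was high in both later segments, and Cyp2a5 in the 2 earlier ones. Outside the proximal tubule Cyp2a5 reached 6.76 to 10.4 TPM in DTL3. PTS1 minus PTS2 was -8.94 for Cyp2a4 (SE 0.42, adjusted p = 4.79e-22), the most negative member value in that contrast, being higher in PTS2, and PTS2 minus PTS3 was 5.57 for Cyp2a5 (SE 0.35, adjusted p = 1.11e-16). The PTS1 mouse with 10.7 TPM of Cyp2a4 also had 742 TPM of Kap, a gene with means of 36100.1 TPM in PTS2 and 75375 TPM in PTS3, against 3.95 and 15.2 TPM in the other 2, and the highest Cyp2d9 of the 3. The part of later segments in these PTS1 values was not tested. Every one of the PTS1 differences given for the Cyp2a and Cyp2d genes kept its call without that mouse.

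The coding sequences of Cyp2a4 and Cyp2a5 are 98.4% identical and share a run of 216 bases, so reads could be divided wrongly between them. The 250 bases before the start of each gene are shown because the 2 windows are nearly the same while the levels differ between segments, with the window of the PTS1 gene Cyp2d26 beside them. Capitals mark GTTAAT or its reverse complement, the core of the site bound by the proximal tubule factor HNF1. The sequences are from RefSeq on GRCm38.p6, written 5′ to 3′ on the strand of the gene, at chr7:26306942-26307191 (plus strand) for Cyp2a4, chr7:26835089-26835338 (plus strand) for Cyp2a5 and chr15:82794246-82794495 (minus strand) for Cyp2d26.
Cyp2a4: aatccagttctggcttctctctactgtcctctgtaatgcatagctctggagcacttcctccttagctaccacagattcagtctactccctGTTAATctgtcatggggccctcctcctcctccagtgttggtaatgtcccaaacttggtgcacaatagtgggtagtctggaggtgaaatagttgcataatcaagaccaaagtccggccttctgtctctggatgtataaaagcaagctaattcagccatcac
Cyp2a5: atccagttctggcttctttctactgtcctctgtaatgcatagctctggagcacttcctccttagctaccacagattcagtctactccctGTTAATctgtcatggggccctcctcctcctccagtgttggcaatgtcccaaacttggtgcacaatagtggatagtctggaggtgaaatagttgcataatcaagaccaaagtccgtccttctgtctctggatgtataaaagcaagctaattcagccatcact
Cyp2d26: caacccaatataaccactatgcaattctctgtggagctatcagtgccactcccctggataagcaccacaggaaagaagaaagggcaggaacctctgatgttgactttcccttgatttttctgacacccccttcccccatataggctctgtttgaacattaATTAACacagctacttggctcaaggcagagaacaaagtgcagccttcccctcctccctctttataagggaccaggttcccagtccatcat

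Over 249 aligned bases the Cyp2a4 and Cyp2a5 windows differ at 4, and GTTAAT begins 160 and 161 bases before the start. In Cyp2d26 the word lies on the other strand, 90 bases before the start. Searched on both strands in the first window listed for each gene, GTTAAT was in 6.52% of 27025 gene windows, in 8 of the 72 members with a window, and in 3 of the 11 windows of members higher in the proximal tubule, which are the 3 shown. AGGTCA, a nuclear receptor half-site, was in 13.8% of all windows, in 17 of 72 member windows and in 1 of those 11, Cyp2j5. CAAAGTCCA, a site of the factor HNF4, was in 0.381% of all windows and in 9 of 72 member windows, but in none of the 22 windows of members that reached 10 TPM. The 9 include close copies: Cyp2c40, Cyp2c67, Cyp2c68 and Cyp2c69 (coding identity 92.2 to 97.7%), and Cyp3a11 and Cyp3a16 (92.8%). Close copies also share GTTAAT (Cyp2c68 and Cyp2c69) and AGGTCA (Cyp3a25 and Cyp3a59), so the member counts are not of independent windows. Among the 6 windows of members that marked a proximal segment, GTTAAT was in 2 (Cyp2c69 and Cyp2d26), CAAAGTCCA in 1 (Cyp2c69) and AGGTCA in 1 (Cyp2f2); for Cyp2c69 and Cyp2f2 the filter largely fixed the call as a marker. None of the 3 words contains another. A word in a window is not a bound site.

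Cyp2e1, the ethanol and acetaminophen oxidase, had a sharp lower border. It stood at 710, 788, 1073, 1171 and 1202 TPM in PTS2, at 20.3, 61.5 and 85.1 TPM in PTS1, and was listed at 0, 0 and 0.95 TPM in PTS3. PTS2 minus PTS3 was 9.60 (SE 0.56, adjusted p = 8.49e-18), the largest difference between adjoining proximal segments in the family. Cyp2f2, known for naphthalene activation in airway cells, marked PTS1 at 4.15, 5.37 and 5.77 TPM, with no mouse of another group above 1.28 TPM. Only 1 mouse outside PTS1 reached 1 TPM, so the filter largely fixed this call too.

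**Figure D4:**
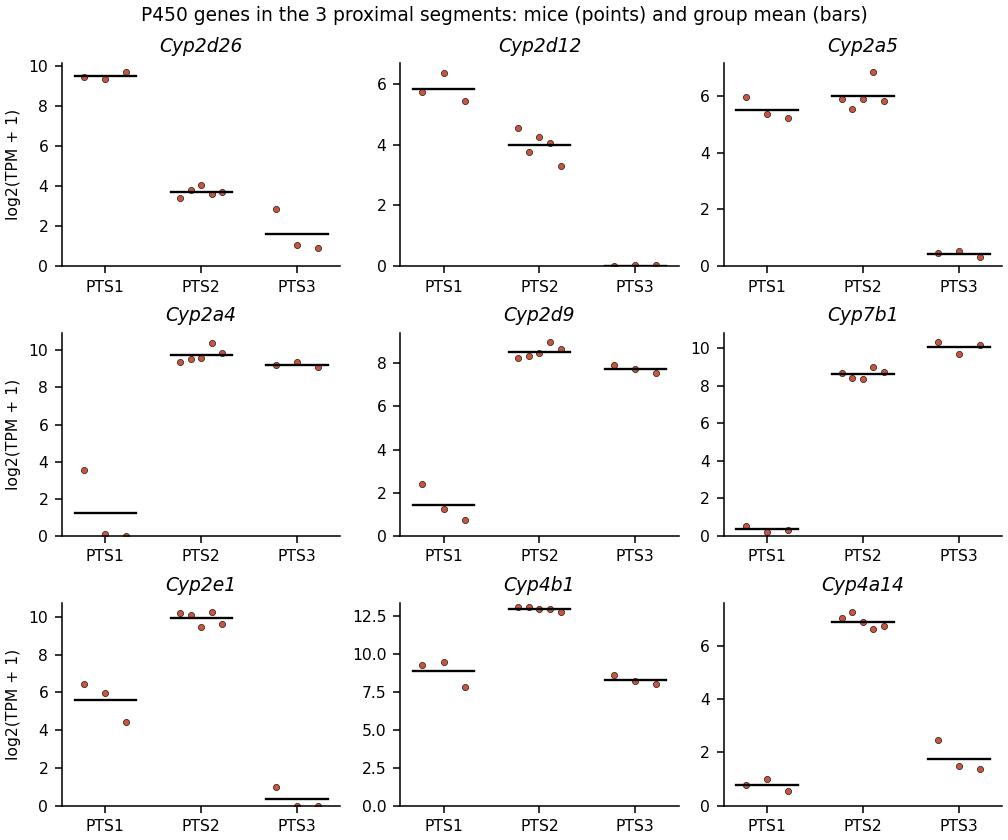
log2(TPM + 1) of 9 P450 genes in each mouse (points) of PTS1, PTS2 and PTS3, with the mean of the log2 values (bars). Cyp2d26 and Cyp2d12 fall from PTS1 on, Cyp2a5 is lost in PTS3, Cyp2a4, Cyp2d9 and Cyp7b1 are low in PTS1 only, and Cyp2e1, Cyp4b1 and Cyp4a14 peak in PTS2.

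Counted over the family, 6 of the 58 tested members were higher in PTS1 than in PTS2, where 4.46% of all genes tested were, and 13 were lower, where 5.1% were. The 6 include Cyp2c69 and Cyp2f2, which passed the filter only through their PTS1 mice, so this count is not to be read against its background; 4 others remain. The count of 6 was 12 with a pseudocount of 0.1 and 3 with one of 5. The 13 were 5 omega-hydroxylases, 4 epoxygenases of the Cyp2j subfamily, 3 members of the list of families 1 to 3, and Cyp7b1. Of the 6, 5 were in the list of families 1 to 3, which leaves out Cyp2c and Cyp2j, and Cyp2c69 was listed as an epoxygenase. Between PTS2 and PTS3, 9 members were higher in PTS2 (background 3.94%) and 2 lower (background 0.755%), Cyp7b1 and Cyp39a1; the Cyp39a1 call was lost without PTS3 mouse 3. Between PTS1 and PTS3, 11 were higher in PTS1 (background 6.14%), 9 of them other than Cyp2c69 and Cyp2f2, and 8 lower (background 3.97%). The PTS1 against PTS3 extremes were Cyp2d26 (8.05, SE 0.45) and Cyp7b1 (-9.69, SE 0.36). These 3 contrasts share groups, so their counts are not independent. Quantile normalization moved the median of all genes for PTS1 against PTS2 from 0.15 to 0.003.

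Several members of families 1 to 3 were distal. Cyp2s1, a P450 of epithelia, measured 113, 118 and 119.9 TPM in CNT, 77.1 to 98.3 TPM (median 89.97) in CCD, 58.1, 58.4 and 63.5 TPM in DCT and 47.8 to 75.9 TPM in CTAL. It was lower in the proximal tubule (log2 -2.05, SE 0.14, adjusted p = 2.86e-17), where group means were 1.59 to 3.06 TPM; under quantile normalization it was not called. The CNT mice lay above all others, but the margin over CCD was 0.39 and was not called. Cyp1a1, the classic target of the aryl hydrocarbon receptor, was nearly limited to 2 neighbouring segments: 28.6, 29.6 and 29.8 TPM in CNT and 31.3 to 47.9 TPM (median 36.7) in CCD. The highest mouse elsewhere had 3.56 TPM, in DCT. CNT and CCD did not overlap, and their margin of 0.41 was not called. Cyp2u1, a fatty acid hydroxylase, was at 18.7 to 21.1 TPM in the CTAL, DCT, CNT and CCD means and at 4.72 TPM or less in the proximal means (log2 -2.38, SE 0.10, adjusted p = 9.84e-26).

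In glomeruli 3 of the 58 tested members were called as markers, where 3.22% of all genes tested were, a share near the background. Cyp1b1, which oxidizes oestrogens and hydrocarbons, measured 22.8, 32.0 and 35.2 TPM there and at most 6.21 TPM in any other mouse, in DTL1 (margin 2.52, SE 0.31, adjusted p = 1.98e-08). Cyp20a1, a member whose substrate is not settled, measured 88.5, 98.8 and 105 TPM in glomeruli and 14.5 to 66.8 TPM in the next group, ATL (margin 1.24, SE 0.25, adjusted p = 0.000215). That call was lost without ATL mouse 4, whose 14.5 TPM lay below the other 3, and under median ratio rescaling. The third was Cyp4f18, described above. Cyp2d22 was also highest in glomeruli, at 58.5, 59.8 and 65.2 TPM, but the highest DTL1 mouse (58.0 TPM) lay close and the margin of 0.33 was not called.

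The sterol and bile acid hydroxylases differed in where along the nephron they were high. Cyp7b1, which hydroxylates oxysterols and some steroids, rose along the proximal tubule from 0.17, 0.22 and 0.44 TPM in PTS1 to 330 to 500.4 TPM (median 413) in the 5 PTS2 mice and 816, 1132 and 1257 TPM in PTS3. The 3 ranges did not overlap. It was the 1 member that marked PTS3 (margin 1.40, SE 0.32, adjusted p = 0.0318), where 0.101% of all genes tested did. That call was lost in 6 of the fits without 1 mouse, 4 of them without a PTS2 mouse and 2 without PTS3 mouse 1 or 3.

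Cyp7b1 had a separate stretch in the collecting system. It measured 31.8, 38.6 and 41.0 TPM in CNT, 58.8 to 67.3 TPM (median 64.0) in CCD and 53.5, 59.0, 70.7 and 76.2 TPM in OMCD, after 1.05 ± 0.36 TPM in DCT (n = 3) and 1.15 ± 0.45 TPM in CTAL (n = 5). All CNT, CCD and OMCD mice lay above all DCT and CTAL mice. The OMCD mean was 16.2% of the PTS2 mean, while the proximal marker list in OMCD was at 0.0258% of its PTS2 mean. In DTL1, which follows PTS3, Cyp7b1 was at 19.5% of its PTS2 mean and the marker list at 6.33%, while in PTS3 itself they stood at 266% and 153%.

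Cyp27a1, a mitochondrial enzyme that starts an alternative route to bile acids, had its highest level in glomeruli, at 138, 149.8 and 154 TPM. The proximal values were 73.9, 74.4 and 76.6 TPM in PTS1, 44.5 to 57.6 TPM in PTS2 and 28.2, 38.7 and 44.2 TPM in PTS3, with no overlap among these 4 groups. It was higher in the proximal tubule than in the rest (log2 3.41, SE 0.26, adjusted p = 8.54e-16). The margin of glomeruli over PTS1 was 0.96 (SE 0.61) and was not called, nor was any step between proximal segments with all groups in the fit; without the glomerulus, DTL1, DTL2, DTL3 and ATL, PTS1 minus PTS3 was called (log2 1.05, limma adjusted p = 0.00574). In ATL, 1 of the groups left out there, 2 mice were listed at 0 and the others had 5.98 and 27.3 TPM. ATL was not left out alone, and its part in that call was not tested. Cyp39a1, an oxysterol hydroxylase, was low in the proximal tubule: 0.901 to 4.32 TPM in the proximal means, 32.4, 39.3 and 33.7 TPM in CNT, CCD and OMCD, and lower in the proximal tubule by the test (log2 -2.68, SE 0.13, adjusted p = 2.31e-23). Cyp46a1, a cholesterol hydroxylase best known from neurons, had its highest mean in ATL (10.1, 11.8, 21.3 and 25.4 TPM), with no proximal mean above 1.03 TPM. The ATL range overlapped those of other groups, among them glomeruli (8.85 to 11.1 TPM) and DTL3 (4.67 to 16.6 TPM). Its margin over glomeruli of 0.61 (SE 0.30) was not called. Cyp46a1 would not have passed the filter without mice outside the proximal tubule, which largely fixed its call as lower there. The 2 ATL mice with the higher Cyp46a1 values had 601 and 703 receptor genes at 1 TPM or more, and the others 20 and 33.

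The steroid hormone and retinoic acid lists were low with few exceptions. Of 6 steroid hormone members 5 had a group mean above 1 TPM and 1, Cyp19a1 (aromatase), a mean above 10 TPM, which rests on 1 DTL1 mouse. Without 1 mouse each, Cyp11b1 and Cyp21a1 fall below 1 TPM and the 5 become 3. Cyp11a1, the side-chain cleavage enzyme that opens steroid synthesis, marked DTL2 at 6.69, 8.51 and 10.5 TPM, with no mouse of another group above 1.52 TPM (margin 1.98, SE 0.17, adjusted p = 2.63e-11); 0.0829% of all genes tested marked DTL2. The 4 adrenal marker genes summed to 4.33 to 5.29 TPM there, with 2 of 4 at a mean of 1 TPM or more, Akr1b7 at 0.18 TPM and Hsd3b1 at 0.02 TPM. Cyp19a1 stood at 6.12, 10.7 and 40.4 TPM in DTL1 and 1.15, 3.2 and 15.6 TPM in glomeruli, which overlap, and its DTL1 margin of 1.40 was not called (adjusted p = 0.137). Cyp17a1 measured 1.9, 1.9 and 12.15 TPM in glomeruli and 3.675, 4.41 and 7.58 TPM in DTL1, so its glomerular mean rests on mouse 1, and it was called lower in the proximal tubule (log2 -1.10), a call lost under both rescalings, with a pseudocount of 5 and without the glomerulus, DTL1, DTL2, DTL3 and ATL. Cyp11b1 measured 0.5, 0.8 and 2.05 TPM in glomeruli, and Cyp21a1 0.25, 0.58 and 2.32 TPM in DTL1. The glomerular samples also held 74.3 to 138 TPM of the adrenal marker list, most of it Akr1b7 (99.6 TPM), with Mc2r at 4.28 TPM, Star at 3.72 TPM and Hsd3b1 at 0.0333 TPM; its part in the steroid members' values there was not tested.

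Of the 3 retinoic acid hydroxylases, Cyp26a1 measured 4.83, 23.7 and 31.1 TPM in DTL1 and 8.05, 9.9 and 14.1 TPM in glomeruli, with at most 1.16 TPM in any other mouse. Cyp26b1 measured 2.9, 4.05 and 13.0 TPM in glomeruli and 4.42, 4.64 and 6.44 TPM in DTL1. The groups overlap, and the order of their means rests on glomerular mouse 1. DTL1 and the glomerulus are also the 2 groups with the most receptor genes at 1 TPM or more, and whether these low values belong to that signal was not tested. Neither gene was called in any contrast given here with a pseudocount of 1; with one of 0.1 both were called lower in the proximal tubule (log2 -1.06 for Cyp26a1 and -1.54 for Cyp26b1).

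Across the 15 groups, 15 members marked a single group: 3 the glomerulus, 4 PTS1 (background 0.544%), 5 PTS2 (background 0.257%), and 1 each PTS3, DTL2 and CCD (background 0.0207% for CCD). The PTS1 members were Cyp2c69, Cyp2d12, Cyp2d26 and Cyp2f2, and those of PTS2 were Cyp2e1, Cyp2j13, Cyp4a10, Cyp4a14 and Cyp4b1. Cyp2c69 and Cyp2f2 would not have passed the filter without their PTS1 mice, so the PTS1 count is not to be read against its background. Of these 15 calls 9 were made in every fit without 1 mouse, and 4 in every fit run: Cyp2d26, Cyp2e1, Cyp4a14 and Cyp4b1. With a pseudocount of 5, Cyp2c69, Cyp2f2, Cyp4f18 and Cyp4f39 were not called, and with a filter at 5 TPM Cyp2c69 and Cyp2f2 were not. Where no filter was used, Cyp4a10, Cyp7b1 and Cyp4f18 were not called. Averaging pieces as TPM ended the calls of Cyp4a10 and Cyp7b1, and taking the mouse number as a replicate block ended that of Cyp4a10. Cyp4f18 lost its call under both rescalings, Cyp4a10 under quantile normalization and Cyp20a1 under median ratio rescaling. With a pseudocount of 0.1, Cyp2d12, Cyp2j13, Cyp4a10, Cyp7b1, Cyp4f18 and Cyp4f39 were not called. Cyp1b1 and Cyp11a1 lost their calls only where their own group was left out of the fit. No member marked DTL1, DTL3, ATL, MTAL, CTAL, DCT, CNT, OMCD or IMCD.

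Many members lie side by side in the genome, in RefSeq gene order on GRCm38.p6. A run of 7 Cyp2j genes on chromosome 4, counted without Cyp2j7, which RefSeq lists as a pseudogene, includes Cyp2j5, high in all 3 proximal segments, Cyp2j13, highest in PTS2, and Cyp2j6, Cyp2j9 and Cyp2j11, highest in DCT. The cluster of 10 on the same chromosome runs from Cyp4x1 through the Cyp4a genes to Cyp4b1, and its genes that belong to the 92 and passed 10 TPM (Cyp4a10, Cyp4a14, Cyp4a31 and Cyp4b1) were highest in PTS2. Of its genes whose symbols have another form and are not among the 92, Cyp4a12b was also highest in PTS2 (11.3 TPM), but Cyp4a12a was highest in PTS3 (55.4 TPM, against 25.75 TPM in PTS2). On chromosome 15 a run of 4 genes held Cyp2d9, highest in PTS2, and Cyp2d22, highest in glomeruli, and another run of 4 held Cyp2d12 and Cyp2d26, highest in PTS1. The largest cluster, 14 Cyp2c genes on chromosome 19, held no member that reached 10 TPM.

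Genes that serve the P450 enzymes were taken from fixed lists of electron donors, haem synthesis, regulators and epoxide hydrolases, of which 26 were found and tested. 8 were higher in the proximal tubule and 4 lower, against the backgrounds of 3.94% and 21.8% given above; under median ratio rescaling the split was 15 and 2. Por, the electron donor of the microsomal enzymes, had the same order of proximal segments as the summed P450 level: 143 to 177 TPM in PTS1, 788 to 1149 TPM in PTS2, then 357 to 557 TPM for PTS3, and a range of 46.9 to 114 TPM in the other group means. Its PTS2 mice lay above every other mouse, and it marked PTS2 (margin 1.17, SE 0.17, adjusted p = 8.26e-06). Cyb5a, cytochrome b5, was highest in PTS3 at 4071 ± 202 TPM in PTS3 (n = 3), against 2418 ± 308 TPM in PTS2 (n = 5) and 1470 ± 205 TPM in PTS1 (n = 3). Fdx1, the mitochondrial donor, was higher in the proximal tubule (log2 1.196, SE 0.06, adjusted p = 4.33e-22), with means of 281, 306 and 237 TPM in PTS1, PTS2 and PTS3 and 53.4 to 198 TPM elsewhere.

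Of 8 haem synthesis genes 1, Cpox, was higher in the proximal tubule and none lower. Alas1, which sets the pace of haem synthesis, was at 342 ± 118 TPM in PTS2 (n = 5) and 70.8 ± 31.9 TPM in PTS3 (n = 3), a difference of 2.35 (SE 0.33, adjusted p = 6.46e-07), but its CTAL mean of 331 TPM was close to that of PTS2. Ephx2, the soluble hydrolase that degrades the products of the epoxygenases, measured 253 to 303 TPM in PTS1, 329 to 376 TPM in OMCD, 479 to 565 TPM in PTS3 and 924 to 1055 TPM in PTS2. Ephx1, the microsomal hydrolase, was low in the proximal tubule: 1.28 to 9.04 TPM in the 11 proximal mice and group means from 82.1 TPM in DCT to 819 TPM in IMCD elsewhere, a proximal difference of -6.13 (SE 0.11, adjusted p = 8.06e-40), with no overlap.

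**Figure D5:**
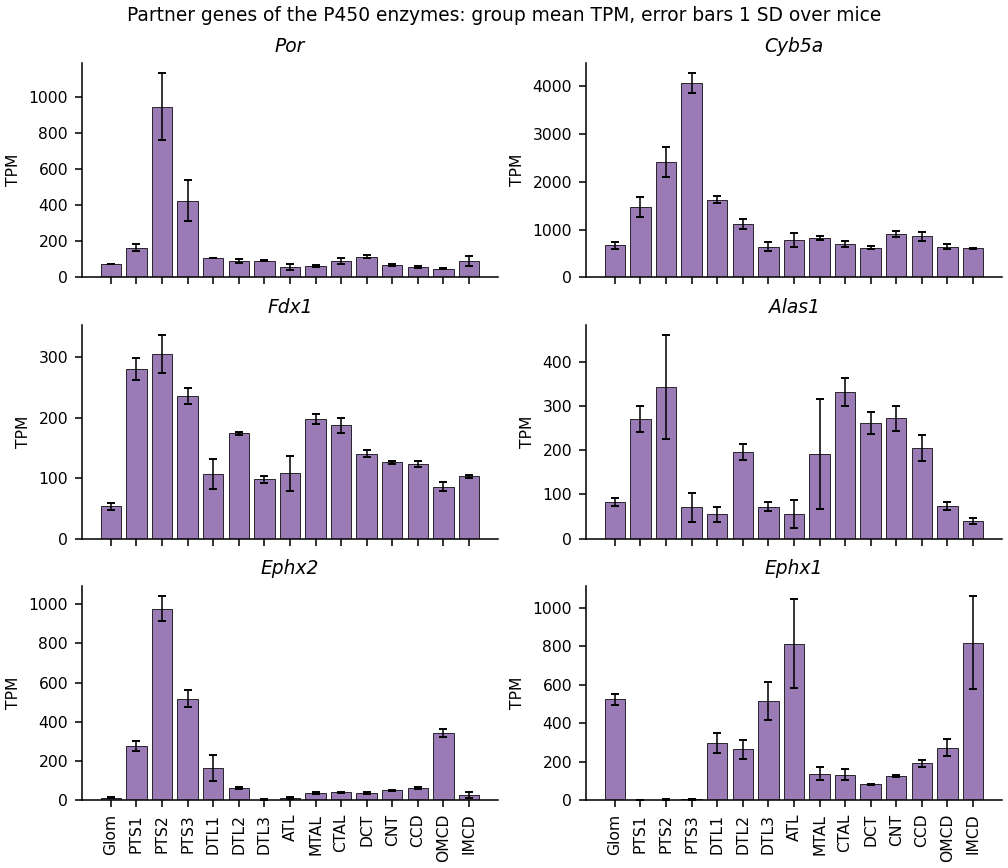
Group mean TPM (bars, from 0) with 1 SD over mice (error bars) of 6 genes that serve P450 enzymes, in the glomerulus (Glom) and 14 tubule segments. Por and Ephx2 peak in PTS2 at 945 and 977 TPM, Cyb5a peaks in PTS3 at 4071 TPM, and Ephx1 is under 5 TPM in the 3 proximal means.

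Among the regulators, Ppara, the fatty acid receptor known to act on Cyp4a genes, was at 62.1 ± 8.75 TPM in PTS1 (n = 3), 36.2 ± 3.47 TPM in PTS2 (n = 5) and 20.1 ± 4.79 TPM in PTS3 (n = 3), an order unlike that of Cyp4a10, Cyp4a14 or Cyp4a31. Ahr, which acts on Cyp1a1, was lower in the proximal tubule (log2 -2.37, SE 0.10) and had its highest means in DTL1 (18.96 ± 6.73 TPM, n = 3), the glomerulus (16.4 ± 4.29 TPM, n = 3) and ATL (15.5 ± 5.96 TPM, n = 4), where the Cyp1a1 means were 0.705, 1.22 and 0.005 TPM. It stood at 14.9 ± 1.74 TPM in CCD (n = 5) and 12.9 ± 0.65 TPM in CNT (n = 3), the groups where Cyp1a1 was high, and at 13.8 ± 1.24 TPM in OMCD (n = 4), where Cyp1a1 was at 2.05 TPM. The part of Ppara in the Cyp4a levels, and that of Ahr in the Cyp1a1 levels, was not tested. Nr1i2, the pregnane X receptor, was at 2.78 ± 0.32 TPM in PTS1 (n = 3) and under 1 TPM in every other mouse, so it passed the filter only through PTS1 and its call there is not given as a result. Nr1i3, the related xenobiotic receptor, was between 0.83 and 2.02 TPM in every group mean and did not pass the F-test (adjusted p = 0.151).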

How the data were processed

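The deposited table holds TPM per gene, a length-scaled share computed by the authors, in 93 libraries; all columns sum to nearly the same total (999999 to 1000190.3), so depth per sample is unknown and no counting intervals are given. The submitters' processing notes name STAR 2.5.4a, RSEM 1.3.0, Cell Ranger 3.0.2 and Seurat with no role; the build and annotation behind the TPM are not given in the sources used here. The 14 columns of the authors' means were not used, and 3 single-cell samples were not analysed here. The groups come from the labels; 1 PTS2 column is named for mouse 2 but with a piece letter that no sample title has, so it was kept as a PTS2 mouse without a number. Nothing in the labels says that a number marks the same mouse in different segments.

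Values were taken as log2(TPM + 1), averaged over pieces, and genes at 1 TPM or more in at least 3 mice were kept (33793 genes). limma 3.58.1 in R 4.3.3 (lmFit, eBayes with trend) fitted 15 group means, with Benjamini-Hochberg adjustment over all genes kept. Calls needed an adjusted p under 0.05 and a log2 difference of at least 1. The code was tested on simulated data. Named genes were members with a group mean of 10 TPM, those marking a group, those with the largest called difference per proximal contrast, and families 11, 17, 19, 20, 21 and 26. Coding identity used GENCODE M21, and windows of 250 bases used RefSeq. The members and lists were chosen with earlier results of these data known. Alternatives were other pseudocounts and filters, 2 rescalings, pieces averaged as TPM, all pieces as independent samples, a replicate block, leaving out 5 groups with many receptor genes, and leaving out each mouse. P-values rest on 1 spread per gene between mice as numbered, pooled over all 15 groups and moderated across genes. They do not measure the spread of only the groups compared.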

Additional observations from a re-analysis of the deposited data

Results flagged for a closer look

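In 57 groups of 4 or 5 mice with a mean of at least 10 TPM, the gap of the highest or lowest mouse to its nearest neighbour was compared with Dixon's 95% limit, and 2 groups passed it; chance flags about 1 in 20 groups. For Cyp2a5 in PTS2, mouse 5 had 113 TPM and the nearest mouse 59.2 TPM, a gap of 0.801 of the range against a limit of 0.71. For Cyp4v3 in OMCD, mouse 1 had 16.8 TPM and the nearest mouse 10.3 TPM, a gap of 0.9 of the range, above the limit for 4 mice. The same OMCD mouse had 253 receptor genes at 1 TPM or more, against 76 to 128 in the other 3, and their part in the value was not tested.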

How the results depend on the processing

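No called difference of a named gene changed its sign under any alternative run. Counts and medians were not part of that check. Under quantile normalization the members' median for the proximal tubule went from -0.247 to 0.003. The same setting moved their median for PTS1 minus PTS2 from 0.095 to -0.099. Of 92 calls, 79 were made in every fit without 1 mouse and 58 in every other alternative. With a pseudocount of 0.1, members lower in the proximal tubule went from 11 to 27, higher in PTS1 than in PTS2 from 6 to 12, higher in PTS2 than in PTS3 from 9 to 14, lower there from 2 to 1, higher in PTS1 than in PTS3 from 11 to 17, and marking a group from 15 to 9. With a pseudocount of 5 the counts were 3 for PTS1 over PTS2, 1 for PTS3 over PTS2 and 7 for PTS1 over PTS3. Quantile normalization left 6 members lower in the proximal tubule. A filter at 5 TPM left 37 members passing the F-test, since fewer were tested. Median ratio rescaling gave 15 partner genes higher and 2 lower in the proximal tubule. Where a cause is not named it was not tested. Without 1 mouse at a time, the F-test count was 58 to 58, proximal calls 17 to 17 higher and 10 to 11 lower, PTS1 against PTS2 6 to 7 higher and 11 to 14 lower, PTS2 against PTS3 8 to 10 higher and 1 to 2 lower, PTS1 against PTS3 10 to 12 higher and 8 to 10 lower, marking 12 to 17, and partners 8 to 8 higher and 4 to 4 lower. With the mouse number as a replicate block, 14 members marked a group, 7 were higher and 11 lower in PTS1 than in PTS2, and 12 were higher in PTS1 than in PTS3. The median correlation of deviations from the group mean was 0.000185 over 290 same-number pairs and 0.000366 over 968 others. Correlations above 0.1 were seen in 19 of the 290 and in 31 of the 968, a larger share of the same-number pairs. These values do not decide whether a number pairs samples. TPM carries no depth, which limits what low values show.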
